A study of Mus musculus with 8 samples.

Results

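Inward rectifier and ATP-sensitive potassium channel genes were examined in mouse hearts under pressure overload, as the 8 genes Kcnj2, Kcnj3, Kcnj5, Kcnj8, Kcnj11, Kcnj12, Abcc8 and Abcc9 among the 56748 genes of the deposited table. They were chosen by gene symbol, and each symbol matched 1 row. All 8 were among the 16780 genes that passed the filter on low counts. Polyadenylated RNA was sequenced from 8 hearts, 4 labelled ACRE and 4 labelled CMS7KO, all from mice of 3 to 4 months on a background the labels spell C56BL. Every heart had been subjected to transverse aortic constriction for 7 days, so there was no unoperated group. ACRE hearts carried a Cre transgene under the aMHC (alpha myosin heavy chain) promoter, which is active in cardiomyocytes. In CMS7KO hearts Cre driven from the same promoter excised Smad7 in cardiomyocytes, so both groups carry Cre, and whole hearts also hold cells that the deletion does not target. In each group replicates 1 and 2 are labelled male and replicates 3 and 4 female.

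Inward rectifier channels pass potassium more readily into the cell than out of it. In cardiomyocytes the classical inward rectifier current holds the resting potential and shapes the end of repolarization. Channels gated by G proteins carry the potassium current that acetylcholine evokes through muscarinic receptors, and they are best known from atria and pacemaker tissue. ATP-sensitive (KATP) channels open when ATP runs low, and combine pore subunits of the Kir6 family with sulfonylurea receptors, which are ABC-type proteins that sense nucleotides. In the mouse, ventricular KATP channels are known to use Kcnj11 with Abcc9, those of atria to use Kcnj11 with Abcc8, and those of vascular muscle and pericytes to use Kcnj8 with Abcc9.

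RefSeq promoter windows on GRCm38.p6, of 250 bases before and 50 after the start, matched 6 of the 8 genes. Kcnj11 and Abcc8 had no entry. Those of 4 genes are shown, because Kcnj2 was the 1 gene whose groups did not overlap, Kcnj3 and Kcnj5 encode partners in 1 channel and shared a pattern over hearts, and Kcnj8 had the opposite pattern over hearts. They are written 5′ to 3′ on the strand of the gene. Capitals mark matches on either strand to the E-box CACGTG, to the GC box letters GGGCGG or to the letters CCAAT, which make up the box of that name.
Kcnj2, chr11:111065914-111066213, plus strand: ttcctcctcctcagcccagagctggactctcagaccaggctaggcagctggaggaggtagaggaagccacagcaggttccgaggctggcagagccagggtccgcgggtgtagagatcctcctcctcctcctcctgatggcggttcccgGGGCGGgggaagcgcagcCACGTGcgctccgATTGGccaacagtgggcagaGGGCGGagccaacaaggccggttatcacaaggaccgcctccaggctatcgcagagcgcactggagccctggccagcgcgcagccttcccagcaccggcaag
Kcnj3, chr2:55435720-55436019, plus strand: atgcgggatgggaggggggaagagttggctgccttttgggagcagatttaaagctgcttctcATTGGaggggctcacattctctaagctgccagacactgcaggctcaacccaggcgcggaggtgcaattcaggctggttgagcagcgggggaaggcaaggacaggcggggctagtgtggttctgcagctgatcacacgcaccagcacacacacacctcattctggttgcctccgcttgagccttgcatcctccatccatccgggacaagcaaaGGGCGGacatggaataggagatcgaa
Kcnj5, chr9:32344295-32344594, minus strand: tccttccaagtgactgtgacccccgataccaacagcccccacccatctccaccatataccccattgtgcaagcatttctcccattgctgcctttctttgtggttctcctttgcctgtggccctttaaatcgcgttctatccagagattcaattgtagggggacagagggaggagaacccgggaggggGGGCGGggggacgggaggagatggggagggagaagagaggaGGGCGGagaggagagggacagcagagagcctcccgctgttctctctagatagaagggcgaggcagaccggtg
Kcnj8, chr6:142571565-142571864, minus strand: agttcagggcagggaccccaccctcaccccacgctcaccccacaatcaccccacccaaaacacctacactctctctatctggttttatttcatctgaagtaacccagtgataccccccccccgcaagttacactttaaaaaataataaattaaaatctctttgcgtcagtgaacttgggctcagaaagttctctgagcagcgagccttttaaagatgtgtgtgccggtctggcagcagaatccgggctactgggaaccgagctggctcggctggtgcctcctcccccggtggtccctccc
The Kcnj2 window held 4 matches: 1 E-box that begins 84 bases before the start, 2 GC boxes and 1 CCAAT box. Kcnj3 held 1 GC box, which lies after the start, and 1 CCAAT box, Kcnj5 held 2 GC boxes, and Abcc9 held 1. No match overlapped another. Among all 32851 promoter windows of this length, 7.15% held CACGTG, 35.7% held GGGCGG and 37.4% held CCAAT. None of the 6 windows held TATAAA, the core promoter box in 13.6% of all windows. The same was true of AGATAA, bound by cardiac zinc finger factors (11.2%), and of TGANTCA, the AP-1 site (7.81%), searched on both strands. It was also true of 1 form of the Mef2 motif, with fixed outer and free middle letters (3.69%). Other forms of the Mef2 motif were not searched, so their absence from these windows was not tested. The windows of Kcnj8 and Kcnj12 held no match to any of the 7 patterns searched. A match to these letters is a description of the window and not a binding site.

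Libraries held 12920435 to 17199600 counted reads, and a channel gene had 56 to 6446 reads in a library. ACRE 2 and ACRE 4 stood apart from the other libraries on the first principal component of all genes (scores 63.6 and 76.4, others -47.98 to -11.3), so results are given with and without them. Both had the lowest TMM scaling factors (trimmed mean of M values), 0.868 and 0.803 against 0.991 to 1.13. On the second component (17.4% of the variance) ACRE 1 and 3 stood apart instead, at -48.2 and -47.8 against 3.62 to 26.9. Results without ACRE 2 and 4 thus rest on ACRE libraries that also differ from all others. Levels below are counts per 1e6 reads after TMM scaling (CPM). Smad7 stood at 23.9 to 34.6 CPM in ACRE and at 30.9 to 43.1 CPM in CMS7KO. The targeted gene therefore was not lower in the libraries labelled CMS7KO, and each direction by genotype rests on the labels. The libraries labelled ACRE 3 and CMS7KO 3 are labelled female, yet held 224 and 238 CPM of Y-linked transcripts and 0.332 and 0.607 CPM of Xist. The labels give the tissue as whole heart, but several atrial markers were near the floor, and the share of atrium in the RNA was not tested. Of 10 atrial markers, Sln and Bmp10 had 3 reads each, Myl7 65 and Mybphl 81 over all 8 libraries, Myl4 had 561, and the other 5 ranged from 1530 reads for Tbx5 to 92722 for Nppa. Ventricular markers, 4 genes, summed to 5162 to 7692 CPM in ACRE and 4981 to 7996 CPM in CMS7KO, and none was at 0.

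Levels of different genes are compared only as CPM per kilobase of the gene model. Abcc9 had the highest mean level per kilobase in both groups, at 40.5 ± 17.7 in ACRE and 24.7 ± 2.58 in CMS7KO (SD, n = 4 each). It was the highest of the 8 genes in 5 hearts, and Kcnj8 was the highest in ACRE 1, ACRE 3 and CMS7KO 2. Over ACRE 1 and 3 the mean of Kcnj8, 28.2, was above that of Abcc9, 25.4. In CMS7KO Abcc9 was followed by Kcnj8 at 22.9 ± 1.63, Kcnj11 at 17.2 ± 4.59, Abcc8 at 7.69 ± 0.215, Kcnj5 at 4.70 ± 1.87, Kcnj3 at 3.74 ± 1.36, Kcnj2 at 3.15 ± 0.579 and Kcnj12 at 1.66 ± 0.645 CPM per kilobase. In that order 2 steps had ranges that did not overlap, from Kcnj11 to Abcc8 and from Abcc8 to Kcnj5. Abcc9, Kcnj8 and Kcnj11 thus lay above the other 5 genes in CMS7KO. In ACRE the ranges of every pair of neighbours overlapped. There the order was Abcc9, Kcnj11 at 31.7 ± 20.96, Kcnj8 at 22.3 ± 7.41, Kcnj5 at 10.7 ± 8.37, Kcnj3 at 9.40 ± 6.80, Abcc8 at 7.30 ± 2.91, Kcnj2 at 6.39 ± 2.73 and Kcnj12 at 5.96 ± 4.64 CPM per kilobase.

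The comparison by genotype asked how these transcripts differ when cardiomyocytes of the pressure-loaded heart lack Smad7, as labelled. Log2 fold changes were negative for 6 of the 8 genes, as for 50.6% of all genes tested, and the CMS7KO means of Kcnj8 and Abcc8 were close to the ACRE means. No channel gene passed an adjusted p of 0.05 in edgeR's quasi-likelihood test, in either direction. Over all genes that test called 0.0179% higher and 0.0179% lower. An unadjusted p under 0.05 was found for 4 channel genes, all with lower means (Kcnj2, Kcnj12, Kcnj3 and Abcc9), where 8.2% of all genes had this on the lower side and 7.12% on the higher. The median log2 fold change of the 8 genes was -0.95, against -0.01 over all genes tested. It was -0.03 without ACRE 2 and 4, against 0.01 over all genes, with 5 of the 8 values negative and 3 positive. DESeq2, which called 1.17% of all genes lower, called 2 of the 8 lower, Kcnj2 and Kcnj12, and none higher (1.32% of all genes). With no filter on low counts edgeR called 6 of the 8 lower, all but Kcnj8 and Abcc8. That fit called 2.8% of all genes with a read lower and 1.4% higher. Its SEs of the 8 genes were 0.211 to 0.270, against 0.238 to 0.599 with the filter. The log2 fold change of Kcnj3 was -1.36 without the filter and -1.35 with it. The 6 calls thus came with smaller SEs, and why the SEs differ was not tested.

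**Figure D1:**
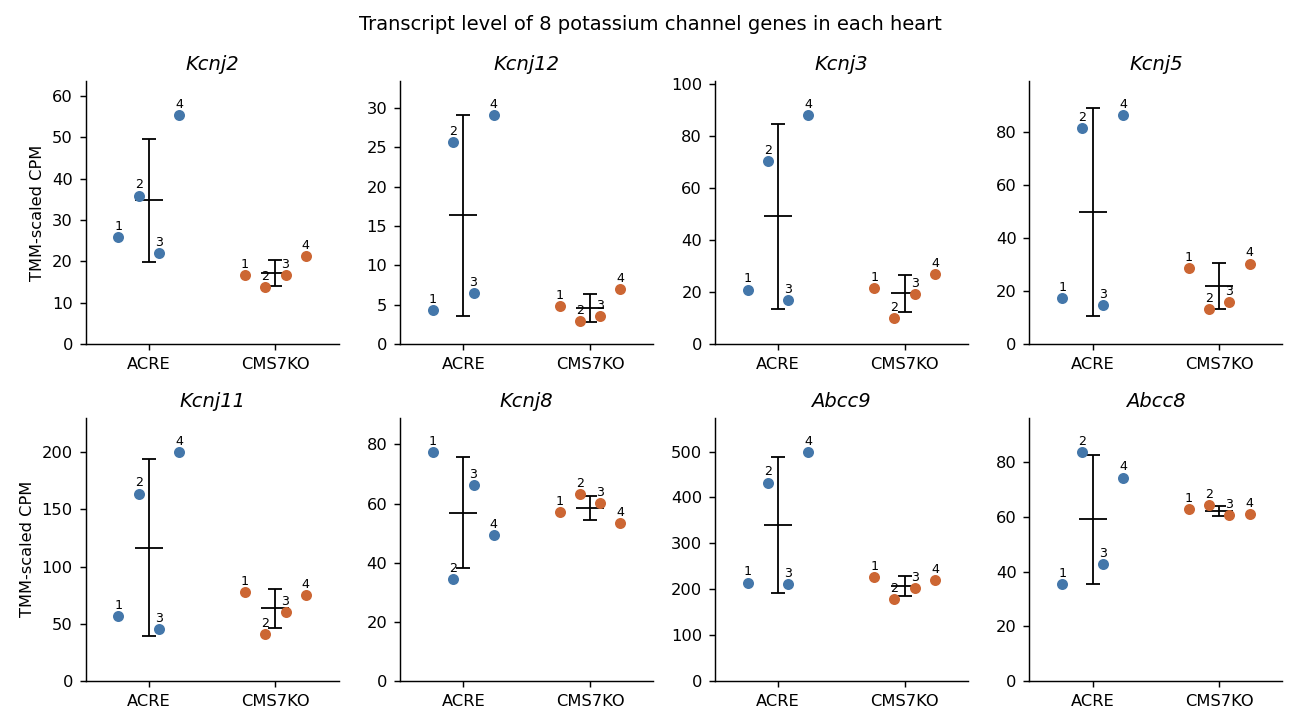
Level of each channel gene in TMM-scaled CPM (linear axis from 0) in the 4 ACRE and 4 CMS7KO hearts. Points are hearts with their replicate number, and the bars are mean ± SD (n = 4 each). ACRE 2 and 4 are the 2 highest libraries for every gene but Kcnj8, where they are the 2 lowest, and Kcnj2 is the gene whose groups do not overlap.

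Of the classical inward rectifiers, Kcnj2 encodes the main pore subunit in ventricle. Kcnj2 (ENSMUSG00000041695; chromosome 11, 110956990 to 110967647 in the table's coordinates) gave 25.98, 35.9, 22.0 and 55.3 CPM for hearts ACRE 1 to 4, and 16.7, 13.8, 16.7 and 21.4 CPM for hearts CMS7KO 1 to 4. All 4 CMS7KO libraries lay below all 4 ACRE libraries, the highest CMS7KO value of 21.4 just under the lowest ACRE value of 22.0. Over all genes, 4.18% were separated in this direction and 5.41% in the other. The means were 34.8 ± 14.9 and 17.1 ± 3.15 CPM (SD, n = 4 each), a 2.03-fold lower level (log2 fold change -1.02, SE 0.27, edgeR adjusted p = 0.214, DESeq2 adjusted p = 0.0287). Without ACRE 2 and 4 the log2 fold change was -0.50 (SE 0.20, edgeR adjusted p = 0.318).

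Kcnj12 encodes a second pore subunit of the classical inward rectifier, which can join that of Kcnj2 in 1 channel. Kcnj12 (ENSMUSG00000042529; chromosome 11, 60913390 to 60961957) had the lowest mean per kilobase of the 8 genes in both groups and the lowest level in 6 hearts, though not in ACRE 2 and 4, with 4.33, 25.6, 6.53 and 29.1 CPM in ACRE 1 to 4. In CMS7KO 1 to 4 it stood at 4.85, 2.91, 3.60 and 6.95 CPM. ACRE 1 and 3 lay inside the CMS7KO range while ACRE 2 and 4 lay several-fold above it, so the groups overlapped. Its change of -1.85 on the log2 scale (SE 0.60, edgeR adjusted p = 0.278, DESeq2 adjusted p = 0.0206) had the largest size of the 8. Without ACRE 2 and 4 it was -0.25 (SE 0.34, edgeR adjusted p = 0.855).

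The G-protein-gated pair had alike patterns over the hearts. Kcnj3 (ENSMUSG00000026824; chromosome 2, 55325982 to 55488157) encodes one subunit of the acetylcholine-activated channel and stood at 20.9, 70.3, 17.0 and 87.9 CPM in ACRE 1 to 4. It was at 21.7, 10.01, 19.2 and 27.1 CPM in CMS7KO 1 to 4. Kcnj5 (ENSMUSG00000032034; chromosome 9, 32226003 to 32255646), which encodes its partner, gave 17.4, 81.5, 14.8 and 86.4 CPM for the ACRE hearts, and 28.7, 13.1, 15.9 and 30.4 CPM for the CMS7KO hearts, in the same order. For both genes ACRE 2 and 4 lay above every other library and ACRE 1 and 3 inside the CMS7KO range. The log2 fold changes were -1.35 (SE 0.53, edgeR adjusted p = 0.307) and -1.18 (SE 0.59, edgeR adjusted p = 0.362). Without ACRE 2 and 4 they were -0.01 (SE 0.34, edgeR adjusted p = 0.997) and 0.44 (SE 0.38, edgeR adjusted p = 0.725), so that of Kcnj5 changed sign. The atrial list given above, led by the stress-induced Nppa, summed to 285 to 760 CPM in ACRE and 579 to 1596 CPM in CMS7KO, with higher means for 7 and lower for 1 of the 8 tested, 0 called and no gene of the 10 at 0 in all libraries. Nppa made up 407 of the mean sum of 480 CPM in ACRE and 1044 of 1128 CPM in CMS7KO. Myl7 and Dkk3 were higher in all CMS7KO than in all ACRE libraries, as were 5.41% of all genes. Myl7 was near the floor, at 0 to 0.251 CPM in ACRE and 0.362 to 1.64 CPM in CMS7KO. Tbx5 was lower, as were 4.18% of all genes, and the part of this list in the result was not tested.

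Among the pore subunits of KATP channels, Kcnj11 (ENSMUSG00000096146; chromosome 7, 45743377 to 45750188) encodes the one of ventricular muscle. Hearts ACRE 1 to 4 had 56.9, 163.8, 45.5 and 200.1 CPM, and hearts CMS7KO 1 to 4 had 77.9, 40.9, 59.8 and 74.7 CPM, so the groups overlapped. Its log2 fold change was -0.88 (SE 0.46, edgeR adjusted p = 0.378) with all libraries and 0.30 (SE 0.26, edgeR adjusted p = 0.730) without ACRE 2 and 4, a change of sign. Kcnj8 (ENSMUSG00000030247; chromosome 6, 142510563 to 142517340), the pore subunit of vascular muscle and pericytes, had the reverse pattern over libraries. It was at 77.4, 34.5, 66.3 and 49.4 CPM in ACRE 1 to 4, lowest of all libraries in ACRE 2 and 4. In CMS7KO 1 to 4 it stood at 57.02, 63.1, 60.1 and 53.4 CPM, between those 2 pairs of ACRE libraries. The fold of CMS7KO over ACRE was 1.03 with a 95% confidence interval of 0.709 to 1.48 (edgeR adjusted p = 0.957), and without ACRE 2 and 4 it was 0.813 (0.668 to 0.990, edgeR adjusted p = 0.378).

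Of the sulfonylurea receptor genes, Abcc9 (ENSMUSG00000030249; chromosome 6, 142533588 to 142648041), which encodes the receptor of ventricular and vascular KATP channels, gave 214, 432, 211 and 499 CPM for hearts ACRE 1 to 4, and 226, 178, 203 and 221 CPM for hearts CMS7KO 1 to 4. ACRE 1 and 3 lay inside the CMS7KO range. With all hearts the log2 fold change was -0.71 (SE 0.31, adjusted p = 0.322 by edgeR), and it was -0.04 (SE 0.15, edgeR adjusted p = 0.948) without ACRE 2 and 4. Abcc8 (ENSMUSG00000040136; chromosome 7, 45753947 to 45829457), which encodes the receptor of pancreatic beta cells and mouse atria, stood at 35.5, 83.7, 42.8 and 74.3 CPM in ACRE 1 to 4. In CMS7KO 1 to 4 it was at 62.9, 64.3, 60.5 and 60.98 CPM, a narrow range that lay above ACRE 1 and 3 and below ACRE 2 and 4. With all libraries the fold was 1.05 with a 95% confidence interval of 0.696 to 1.59 (edgeR adjusted p = 0.912). Without ACRE 2 and 4 it was 1.59 (1.28 to 1.96; log2 fold change 0.67, SE 0.14), with an adjusted p of 0.0547 that missed the threshold (edgeR), where 0.481% of all genes were called higher and 0.498% lower. Abcc8 overlaps Gm45487 on the same strand, with 4 to 20 reads per library, and Gm45486 on the other strand, with 0 to 9 reads. Abcc9 overlaps 5330439B14Rik on the other strand, with 0 to 2 reads.

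**Figure D2:**
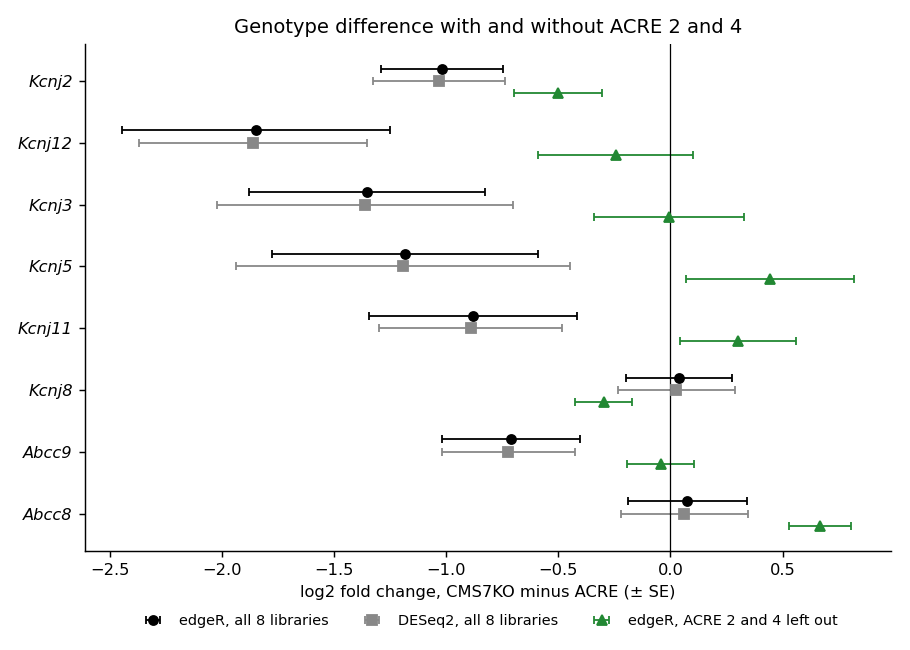
Log2 fold change of each channel gene, CMS7KO minus ACRE, with its SE, from edgeR and DESeq2 on all 8 libraries and from edgeR without ACRE 2 and 4. The 6 negative values of the full comparison lie nearer to or beyond 0 without those libraries (Kcnj3 from -1.35 to -0.01), while Abcc8 moves from 0.07 to 0.67.

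In ACRE 2 and 4, 7 of the 8 genes were above each of the 6 other libraries, as were 22.5% of all genes tested. Kcnj8 was below each of them, as were 19.5% of all genes. The mean of ACRE 2 and 4 was 5.21 times that of ACRE 1 and 3 for Kcnj5, 5.03 times for Kcnj12, 4.17 times for Kcnj3 and 3.55 times for Kcnj11. It was 2.19 times for Abcc9, 2.02 times for Abcc8, 1.90 times for Kcnj2 and 0.584 times for Kcnj8. Kcnj8 and Abcc9, whose products combine in vascular channels, lie 16247 bases apart in the table's coordinates and had opposite patterns. Kcnj11 and Abcc8 lie 3758 bases apart, and both were high in ACRE 2 and 4.

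Several cell type marker lists also set ACRE 2 and 4 apart. All 12 cardiomyocyte markers had lower means in CMS7KO, with 0 called and a median log2 fold change of -0.49. Their summed level was 52913 to 103141 CPM in ACRE and 38075 to 61578 CPM in CMS7KO, and none was at 0. ACRE 4 and ACRE 2 had the highest list scores, 0.58 and 0.38 above the mean of the 8 libraries on the log2 scale, against 1.09 and 1.38 for Kcnj11 in ACRE 2 and 4. The markers were not uniform in this. Actn2, Myh6, Ryr2, Pln, Actc1, Mb and Ttn were higher in ACRE 2 and 4 than in ACRE 1 and 3. Tnnt2, Tnni3, Tnnc1, Myl2 and Myl3 were not. ACRE 2 was the lowest ACRE library for Tnni3, Myl2 and Myl3, and ACRE 4 was the lowest for Tnnc1. Of 10 pericyte markers 6 had higher and 4 lower means, with 0 called, summing to 1210 to 1838 CPM in ACRE and 1353 to 1795 CPM in CMS7KO. The pericyte score was lowest in ACRE 2 (-0.45) and ACRE 4 (-0.14), and so was that of 8 smooth muscle markers (-0.67 and -0.38), which summed to 645 to 826 and 637 to 867 CPM, and that of 10 endothelial markers (-0.71 and -0.38), which summed to 1519 to 3346 and 2308 to 2850 CPM. The lowest libraries for Kcnj8 were thus also the lowest for these scores. By summed level CMS7KO 2 was lowest for smooth muscle, and CMS7KO 1 and 4 lay below ACRE 4 for pericytes. All 10 fibroblast markers had higher means in CMS7KO, with 0 called, summing to 2328 to 3211 CPM in ACRE and 3342 to 6629 CPM in CMS7KO. Of 10 macrophage markers 8 had higher means, summing to 347 to 644 and 654 to 774 CPM. Pancreatic beta cell markers, searched because Kcnj11 and Abcc8 form the channel of those cells, summed to 0.0584 to 0.804 CPM in ACRE and 0.0631 to 0.506 CPM in CMS7KO, with 2 of 5 at 0. Neuron and glia markers summed to 11.2 to 24.4 CPM in ACRE and 22.3 to 24.8 CPM in CMS7KO, with Th at 0. All 5 erythroid genes had higher means in CMS7KO, with 0 called (median log2 fold change 0.86), summing to 358 to 781 CPM in ACRE and 764 to 1322 CPM in CMS7KO, and their score was lowest in ACRE 2 (-0.99) and ACRE 4 (-0.74). Skeletal muscle markers, 5 of 8 tested and all 5 with higher means, summed to 1048 to 6039 CPM in ACRE and 2317 to 5709 CPM in CMS7KO, with Myh4 at 0. In bulk tissue, fewer cells of a type and less RNA per cell cannot be told apart, and the part of cell makeup in the channel gene values was not tested.

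**Figure D3:**
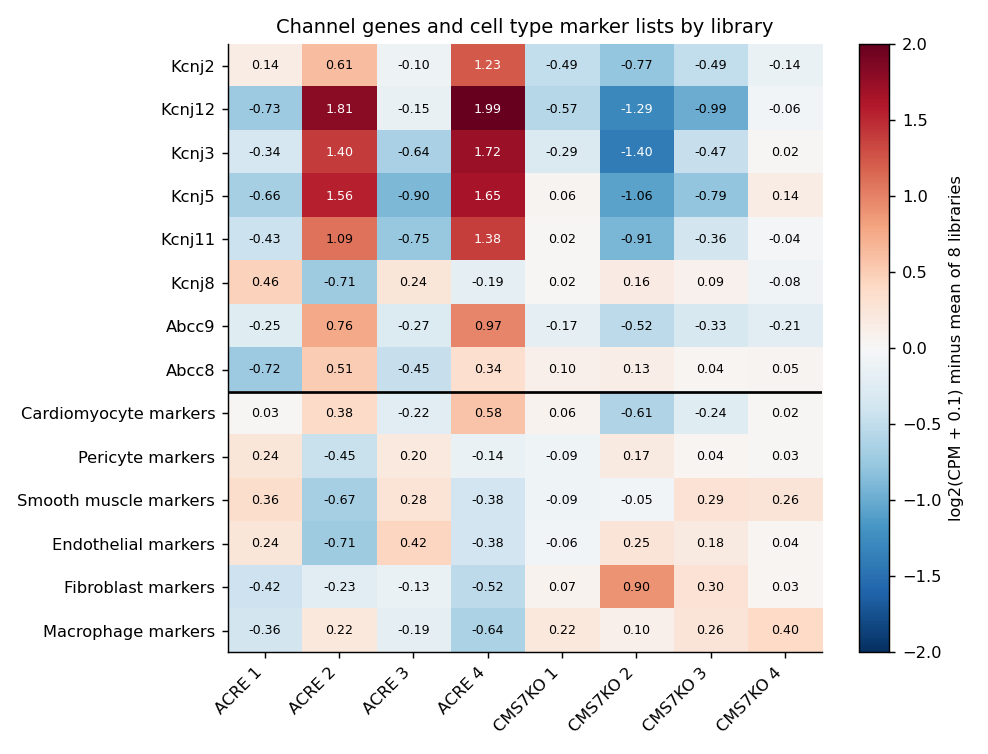
Log2(CPM + 0.1) of each channel gene minus its mean over the 8 libraries, above the line, and the mean of the same quantity over the tested members of 6 marker lists, below it. ACRE 2 and 4 are high for 7 channel genes and for the list mean of cardiomyocyte markers. They are low for Kcnj8 and for the list means of pericyte, smooth muscle and endothelial markers.

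Ratios between subunits of related channels were compared because they do not depend on how a library is scaled. Of 5 ratios, that of Abcc9 to Abcc8 had groups that did not overlap. The share of ratios between other gene pairs that separate the groups was not determined, so how unusual this is cannot be told. Per kilobase it was 5.83, 4.99, 4.76 and 6.48 in ACRE 1 to 4 and 3.47, 2.67, 3.24 and 3.49 in CMS7KO 1 to 4. Its mean was 5.52 ± 0.793 in ACRE and 3.22 ± 0.381 in CMS7KO (SD, n = 4 each), 1.71-fold lower as a ratio of geometric means (log2 difference -0.77). A two-sided exact permutation test over the 70 assignments gave p = 0.0286, the smallest that this design can give, and 0.143 after adjustment over the 5 ratios. It did not pass. A ratio that alone reaches the smallest p cannot pass after adjustment over 5, so the adjusted value cannot decide here. ACRE 2 lay between ACRE 3 and ACRE 1 in this ratio and ACRE 4 was highest.

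The other 4 ratios overlapped between groups. Kcnj11 to Kcnj8 spanned 0.476 to 3.29 in ACRE and 0.449 to 0.969 in CMS7KO (exact permutation p = 0.371, adjusted 0.464). It exceeded 1 in ACRE 2 and 4 alone, at 3.29 and 2.81, so reads per kilobase of the ventricular pore subunit outnumbered those of the vascular one in these 2 hearts and not in the other 6. Abcc9 to Kcnj11, receptor to pore of the ventricular channel, was 1.49 ± 0.443 in ACRE and 1.49 ± 0.294 in CMS7KO (SD, n = 4 each; exact permutation p = 0.914, adjusted 0.914). Kcnj2 to Kcnj12 was 0.709 to 3.03 in ACRE and 1.55 to 2.39 in CMS7KO (exact permutation p = 0.343, adjusted 0.464). Kcnj3 to Kcnj5 was 0.951 ± 0.136 in ACRE and 0.812 ± 0.190 in CMS7KO (SD, n = 4 each; exact permutation p = 0.314, adjusted 0.464), and lay between 0.678 and 1.08 in all 8 hearts.

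**Figure D4:**
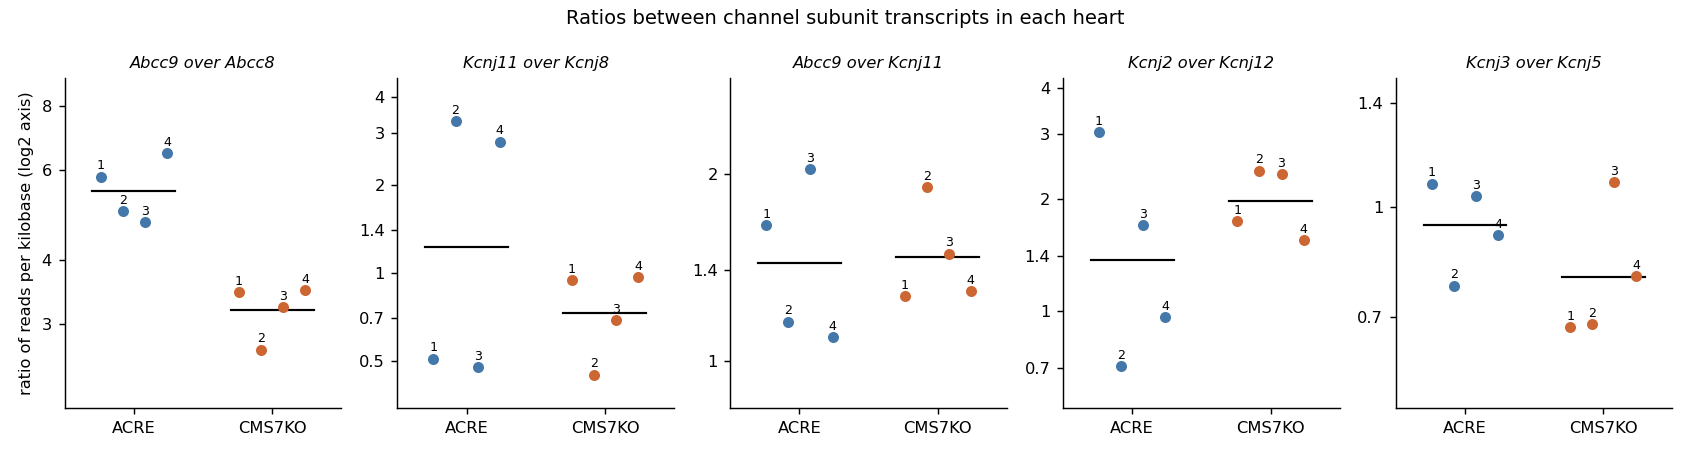
Ratios of reads per kilobase between 2 channel genes in each heart (log2 axis, a range of its own per panel), with replicate numbers and a line at the group's geometric mean (n = 4 each). The Abcc9 to Abcc8 ratio is 4.76 or more in every ACRE heart and 3.49 or less in every CMS7KO heart, while the other ratios overlap.

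Other genes of these currents were examined as 6 lists, and 0 genes passed the threshold in any of them. Among 9 other genes of the Kir family 4 were tested, 1 with a higher and 3 with lower means, and all 9 summed to 5.59 to 11.0 CPM in ACRE and 7.01 to 8.46 CPM in CMS7KO. Kcnj13 was at 0 in every library. Of 10 two-pore leak channel genes 6 were tested, 4 with higher and 2 with lower means (median log2 fold change 0.16). Kcnk3, which encodes the acid-sensitive leak channel, averaged 210 ± 111 CPM in ACRE against 156 ± 53.0 CPM in CMS7KO (n = 4 each, SD), with 292 and 319 CPM in ACRE 2 and 4 against 127 and 102 CPM in ACRE 1 and 3. Kcnk2, which encodes a stretch-activated leak channel, stood at 4.66 ± 1.59 and 6.93 ± 1.37 CPM.

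The muscarinic and adenosine input to the acetylcholine-activated channel held 13 tested genes, 7 with higher and 6 with lower means (median log2 fold change 0.02). Chrm2, the cardiac muscarinic receptor gene, had the smallest p of this list, with 77.5 ± 59.6 CPM in ACRE against 27.3 ± 6.54 CPM in CMS7KO (n = 4 each, SD; log2 fold change -1.50, SE 0.55, edgeR adjusted p = 0.295). It stood at 135 and 122 CPM in ACRE 2 and 4 and at 25.8 and 26.5 CPM in ACRE 1 and 3, the division seen for Kcnj3 and Kcnj5. All 10 genes of membrane anchors and partners had lower means (median -0.34). Among them Ank3, which encodes the membrane anchor ankyrin-G, stood at 52.3 ± 29.3 and 25.4 ± 2.91 CPM (edgeR adjusted p = 0.292). Its ACRE values were 78.9 and 76.5 CPM in ACRE 2 and 4 and 28.0 and 25.8 CPM in ACRE 1 and 3, the latter within the CMS7KO range. Dlg1, a scaffold that binds the protein of Kcnj2, averaged 72.3 ± 12.7 and 56.8 ± 3.73 CPM (edgeR adjusted p = 0.340). The groups of Dlg1 did not overlap, with the lowest ACRE value, 61.7 CPM, just above the highest CMS7KO value, 61.1 CPM. Over all genes, 4.18% were separated in this direction. ACRE 2 and 4, at 77.0 and 88.2 CPM, were the highest libraries of Dlg1. Dmd, with a smaller p than Dlg1, averaged 95.1 ± 55.5 and 55.0 ± 4.79 CPM (edgeR adjusted p = 0.319), and its groups overlapped. It stood at 90.7 and 175 CPM in ACRE 2 and 4 and at 56.5 and 58.2 CPM in ACRE 1 and 3.

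Of 8 genes that supply or break down phosphatidylinositol 4,5-bisphosphate, the lipid that keeps Kir channels open, 4 had higher and 4 lower means (median log2 fold change -0.05). Pip5k1b averaged 22.5 ± 14.4 CPM in ACRE against 10.9 ± 2.34 CPM in CMS7KO (SD, n = 4 each), with 39.1 and 30.0 CPM in ACRE 2 and 4 and 11.2 and 9.78 CPM in ACRE 1 and 3, the latter within the CMS7KO range. Pip5k1c, another kinase gene for this lipid, averaged 88.1 ± 12.0 and 111 ± 8.69 CPM without overlap (SD, n = 4 each). Of 10 enzymes of ATP buffering and glycolysis found with KATP channels, 4 had higher and 6 lower means (median -0.25). Ckb, the brain-type creatine kinase gene, stood at 98.3 ± 40.4 and 178 ± 7.69 CPM (log2 fold change 0.92, SE 0.24, edgeR adjusted p = 0.210), and its groups did not overlap. Gapdh, a glycolytic enzyme gene, stood at 21.9 ± 6.18 and 117 ± 139 CPM (log2 fold change 2.03, SE 0.60, edgeR adjusted p = 0.245), also without overlap, with CMS7KO values from 31.1 to 324 CPM. Gapdh values are those of the deposited counts, and how fully reads of this gene were counted was not tested. Over all genes, 5.41% were separated in the direction of Pip5k1c, Ckb and Gapdh. Ckm, the muscle-type creatine kinase gene, averaged 746 ± 416 and 417 ± 172 CPM (edgeR adjusted p = 0.399), with 1065 and 1145 CPM in ACRE 2 and 4 and 400.1 and 373 CPM in ACRE 1 and 3, which lay inside the CMS7KO range.

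The genes most like each channel gene over the 8 libraries were sought by Pearson's r of log2(CPM + 0.1). The search covered 10948 genes with a mean of at least 5 CPM, with predicted and clone-named genes left out. Points share library depth and the division of ACRE 2 and 4 from the rest, so r is a description only. Closest to Kcnj11 were Gpc1 (r = 0.998), Rai2 (0.997) and Mtus2 (0.995), and closest to Kcnj5 were Entpd5 (0.992), Pdss2 (0.992) and Gpc1 (0.992). Kcnj3 was closest to Hadh (0.995), Slc25a12 (0.994) and Capzb (0.994), of which Hadh and Slc25a12 encode mitochondrial proteins. Kcnj12 was closest to Cse1l (0.995), Gspt1 (0.994) and Ctnna3 (0.991), Abcc9 to Npepps (0.997), Prep (0.997) and Synj2bp (0.996), and Kcnj2 to Grb14 (0.989), Sbk1 (0.988) and Naa15 (0.988). Kcnj8 was closest to Xaf1 (0.977), Usp43 (0.975) and Aqp7 (0.971), and Abcc8 to Sulf2 (0.986), Grk5 (0.976) and Lrp4 (0.970). Over the 6 libraries without ACRE 2 and 4, the r of these 24 pairs was 0.886 to 0.989.

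Neither the sex label nor its interaction with genotype was called for any channel gene, as for 0 of all genes tested (edgeR; unadjusted p under 0.05 for 0.805% of all genes on the higher and 0.429% on the lower side by label, and for 0.417% and 0.644% by interaction). The largest difference by label among the 8 was that of Kcnj3, at 37.8 CPM in libraries labelled female and 30.7 CPM in those labelled male (log2 fold change 0.37, SE 0.52, edgeR adjusted p = 1.00). The genotype log2 fold change of Kcnj2 was -1.02 within each label. That of Kcnj8 was 0.10 in male and -0.03 in female labels, and that of Kcnj12 was -1.95 and -1.75. With 2 libraries per combination, the SE of the interaction was 0.51 to 1.25 on the log2 scale. Each label holds 1 of ACRE 2 and 4, and 2 of the 4 libraries labelled female held the Y-linked transcripts given above. The contrast therefore compares labels and cannot decide whether these genes differ by sex.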

How the data were processed

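Raw read counts per gene, whole numbers that were not normalized, were deposited by the authors for the 8 hearts in a single table that also lists gene positions and lengths. Tools named in the submitters' processing notes are HTSeq 0.6.1, Cufflinks 2.1.1, TopHat2 2.0 and CASAVA, with mm10 and GRCm38.p6 as builds. Neither the strand setting nor the annotation is known from the labels. GENCODE M21 shared 52073 gene identifiers with the table, and 2.85% of these had the same start, while none of the 8 channel genes did, so gene positions are those of the table, with no build named. Promoter windows come from RefSeq on GRCm38.p6.

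The analysis used edgeR 4.0.16 in R 4.3.3, with filterByExpr over genotype by sex label, TMM factors, and the robust quasi-likelihood F test of genotype with the sex label as covariate (5 residual degrees of freedom). Benjamini-Hochberg adjustment ran over all 16780 genes tested, with a threshold of 0.05. The SE is the log2 fold change over the square root of F. DESeq2 1.42.0 and limma 3.58.1 (voom) were alternatives. The scripts were tested on simulated data. All pairs of libraries differed by more than sampling noise (smallest chi-square per degree of freedom 17.5). The series' design text calls the samples independent without naming litters or batches. The p values take the samples as independent, and an effect of litter or batch could not be modelled. Ratios used counts per kilobase of the table's gene length, tested in scipy 1.17.1. Intervals are those of the quasi-likelihood fit.

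All 8 channel genes were named whatever their values. From each of the 6 pathway lists up to 4 genes with the smallest p could be named. Members and lists were chosen with earlier results of these data known, and the alternative that leaves out ACRE 2 and 4 was set with that knowledge.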

Additional observations from a re-analysis of the deposited data

How the results depend on the processing

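With the filter on low counts removed, edgeR called 6 of the 8 channel genes lower (all but Kcnj8 and Abcc8), and 456 genes higher and 912 lower in all against 3 and 3. The SE of Kcnj3 was then 0.22 against 0.53, and the cause was not tested. DESeq2 called 2 channel genes lower, and 214 genes higher and 189 lower in all. The remaining alternatives called 0 channel genes in either direction: other scaling factors, limma voom, no sex covariate, mitochondrial genes left out, and fits with fewer libraries. Scaling by library size alone, added after seeing the data, moved the median log2 fold change of all genes to 0.14 and called none either. Without ACRE 2 and 4 the log2 fold changes of Kcnj5, Kcnj11 and Kcnj8 changed sign, to 0.44, 0.30 and -0.30, as did the log2 ratio differences of Kcnj11 to Kcnj8 (from -0.74 to 0.57), Abcc9 to Kcnj11 (from 0.03 to -0.32) and Kcnj2 to Kcnj12 (from 0.53 to -0.20). Without ACRE 3 and CMS7KO 3 the log2 fold change of Abcc8 was -0.04 (-0.036 before rounding). Leaving out 1 library at a time gave -0.17 to 0.29 for Kcnj8, -0.13 to 0.36 for Abcc8 and -0.10 to 0.20 for the ratio of Abcc9 to Kcnj11, which crossed 0. It gave -1.24 to -0.72 for Kcnj2 and -0.84 to -0.69 for the ratio of Abcc9 to Abcc8, -0.72 without ACRE 2 and 4. With fewer than 4 libraries in a group the exact test of a ratio cannot pass 0.05. The sex label and interaction counts were 0 under each alternative run. Equal replicate numbers did not pair the libraries: their deviations correlated at -0.17, -0.19, 0.12 and 0.20, and 3 of 8 libraries correlated best with their own number. With the replicate block edgeR called 0 channel genes (Kcnj2 -0.95, adjusted p = 0.230) and 1 gene higher and 2 lower in all.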
